A study of Solanum lycopersicum with 6 samples.

Results

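The genes examined were HSFA2, HSFA3, HSFA6a, HSFA6b and HSFA7, class A heat stress transcription factor (HSF) genes of tomato that are grouped as inducible by heat. They were taken by gene identifier, with the version after the dot left out, and all 5 were found among the 35603 genes of the count table. RNA had been sequenced from the fourth leaves of wild-type plants of the tomato cultivar M82, which were 4 weeks old, had been grown at 24 °C with 16 h of light a day and then met heat stress (HS) at 45 °C. The groups were 0 h, 1 h and 6 h of HS, with 2 biological replicates at each time, each a pool of plants, and no other genotype or treatment. No unheated plants taken at 1 h or 6 h were analysed here, so the length of HS and the time of day cannot be told apart.

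HSFs bind heat shock elements, short repeated motifs in the promoters of chaperone genes and other genes of the heat response. They work as trimers or larger complexes, and class A members carry activator motifs that class B members lack. In tomato, factors of the HSFA1 group are present before the stress and trigger the response. HSFA2 then accumulates in the heat, forms complexes with HSFA1 factors and enhances the expression of their targets. HSFA3, HSFA6 and HSFA7 are further class A factors. In Arabidopsis, HSFA3 acts downstream of the dehydration response factor DREB2A, and HSFA6 genes respond to abscisic acid and osmotic stress.

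The libraries held between 25147160 and 30738632 counts. Expression is given as counts per 1000000 counts of a library (CPM) with library sizes adjusted by TMM factors, a correction for a few strongly expressed genes taking up reads. Of the leaf markers on a list (Rubisco small subunits, Rubisco activase and chlorophyll-binding proteins), 7 of 8 were in the table. Their summed level lay between 6015 and 13490 CPM in every library, lowest at 6 h. The marker listed as Rubisco activase did not follow the sum. It had 399 and 296 CPM at 0 h, 1785 and 1785 CPM at 1 h, and 167 and 139 CPM at 6 h. There were 3 markers of other organs. Those listed as the ripe fruit polygalacturonase and the pollen gene LAT52 had at most 4 counts in any library. The one listed as the fruit gene E8 had 70 and 98 counts at 0 h and between 286 and 562 in heated libraries. The sources used here annotate none of the marker and list identifiers, so what each gene encodes could not be checked.

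The genes did not share a time course. HSFA2 and HSFA7 rose steeply by 1 h and had lost most of that rise at 6 h. HSFA3 was well expressed before HS and rose 2.3-fold at 1 h. HSFA6a rose to a low level at both times, and the rise of HSFA6b was called at 6 h but not at 1 h. A gene was called when its adjusted p-value (Benjamini and Hochberg, over all 19123 tested genes) was below 0.05 in the quasi-likelihood test of edgeR. After 1 h of HS, 4 of the 5 genes were called higher than at 0 h and 0 lower, where 32.2% of all genes were called higher and 31.3% lower. After 6 h, again 4 of 5 exceeded 0 h and 0 were lower, beside 30.9% and 28.0% of all genes. Compared with 1 h, 1 gene was higher after 6 h and 3 were lower, beside 34.7% and 31.7%. DESeq2 gave the same numbers of calls, as did an unadjusted p-value below 0.05. In whole leaves, more RNA per cell and more cells that express a gene cannot be told apart.

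**Figure D1:**
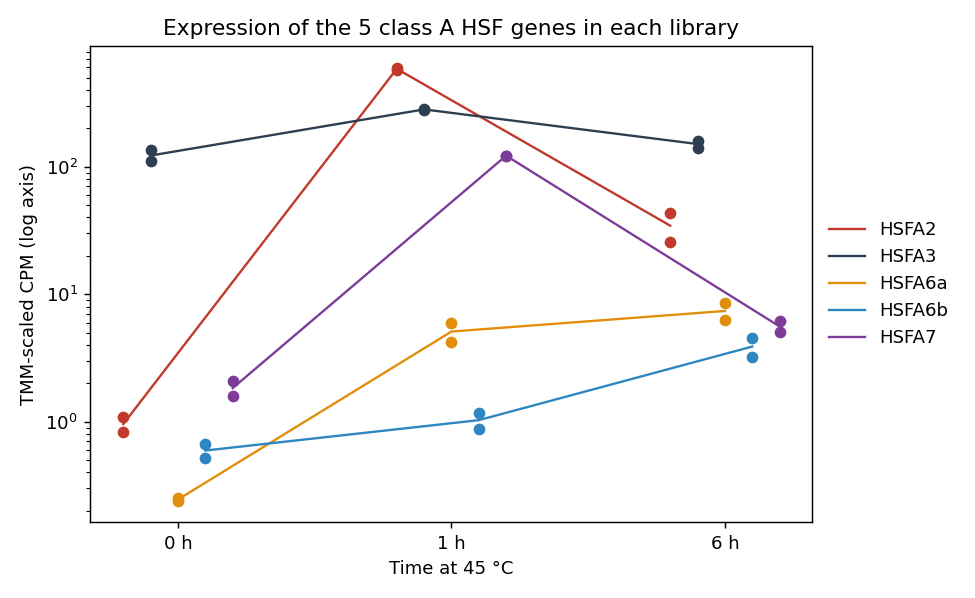
TMM-scaled CPM on a log axis (vertical) against the time at 45 °C (horizontal, evenly spaced and not to scale) for HSFA2, HSFA3, HSFA6a, HSFA6b and HSFA7. Points are the 2 libraries of each time and lines join their means; HSFA2 and HSFA7 peak at 1 h at 585 and 122 CPM, whereas HSFA6a and HSFA6b are highest at 6 h, at 7.39 and 3.89 CPM.

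HSFA2, the factor that accumulates in heated tomato tissue and enhances the response set off by HSFA1, had the largest rise of the 5 genes at 1 h. Its gene, Solyc08g062960.4, spans 53211703 to 53213726 on the minus strand of chromosome 8 (2024 bp, in the M82 gene models of version 1.1.0). It had 0.835 and 1.08 CPM in the 0 h libraries, then 572 and 599 CPM after 1 h, and 25.8 and 43.2 CPM after 6 h. The groups did not overlap, with 1 h highest, 6 h between and 0 h lowest, and the 0 h level rests on only 20 and 27 counts. Between 0 h and 1 h the log2 fold change was 9.24 (SE 0.331, adjusted p = 3.46e-07 by edgeR), the rise of rank 38 among all tested genes. Relative to 0 h it was still 5.16 at 6 h (SE 0.311, adjusted p = 9.23e-06 by edgeR), or 35.7-fold. From 1 h to 6 h HSFA2 fell by 4.08 on the log2 scale (SE 0.239, adjusted p = 3.68e-06 by edgeR), so that its level was 17.0-fold lower at 6 h.

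HSFA7, another class A factor that belongs to the inducible group, also peaked at 1 h, at a lower level than HSFA2. Before HS its mean level was above that of HSFA2, at 1.84 CPM beside 0.959 CPM. At 6 h HSFA7 stood 3.04-fold above 0 h, beside 35.7-fold for HSFA2. Solyc09g065660.4 spans 60224100 to 60226365 on chromosome 9, plus strand (2266 bp). Its expression was 1.59 and 2.09 CPM before HS, rose to 122 and 122 CPM by 1 h, and was 5.01 and 6.16 CPM by 6 h. The replicates at 1 h were nearly identical, and no groups overlapped. The log2 fold change by 1 h was 6.05 (SE 0.170, adjusted p = 2.17e-07 by edgeR), whereas at 6 h it was 1.60 (SE 0.179, adjusted p = 0.000154 by edgeR). The change from 1 h to 6 h was -4.45 (SE 0.147, adjusted p = 4.49e-07 by edgeR), which is 21.8-fold.

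HSFA3, the factor placed downstream of DREB2A in Arabidopsis, was the one of the 5 genes with the highest level before HS. Solyc09g009100.4 spans 2499271 to 2501947 on the minus strand of chromosome 9 (2677 bp). It had 134 and 110 CPM before HS, 279 and 284 CPM after 1 h, and 141 and 160 CPM after 6 h. The 1 h libraries stood apart from the others, while the lower 6 h library lay just above the higher 0 h library. From 0 h to 1 h the log2 fold change was 1.20 (SE 0.135, adjusted p = 9.7e-05 by edgeR), or 2.3-fold, and from 1 h to 6 h it was -0.90 (SE 0.134, adjusted p = 0.000443 by edgeR). Over the whole 6 h it was 0.30 (SE 0.134, 95% interval from -0.01 to 0.60, adjusted p = 0.0831 by edgeR), which did not pass the test. Without replicate 1 of 0 h the value was 0.45 and was called (adjusted p = 0.0321 by edgeR). Over 14 alternatives the adjusted p-value ran from 0.00357 to 0.484, and upper-quartile factors and scaling by library size also gave a call.

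HSFA6a, whose relatives in Arabidopsis respond to osmotic stress and abscisic acid, was at a very low level before HS and rose by 1 h and by 6 h. Solyc09g082670.3 spans 64798294 to 64800557 on chromosome 9, plus strand (2264 bp). Expression was 0.250 and 0.241 CPM before HS, from 6 counts in each library, then 4.24 and 5.95 CPM after 1 h and 8.56 and 6.22 CPM after 6 h. Both heated groups lay above 0 h, and the lower 6 h library was just above the higher 1 h library. By 1 h the log2 fold change was 4.35 (SE 0.374, adjusted p = 2.23e-05 by edgeR), while at 6 h it reached 4.89 (SE 0.366, adjusted p = 2.34e-05 by edgeR), or 20.4-fold and 29.6-fold. The difference between 6 h and 1 h was 0.54 (SE 0.250, 95% interval from -0.03 to 1.11, adjusted p = 0.0872 by edgeR) and was not called. Under upper-quartile factors it was 0.77 and under scaling by library size 0.96, and both were called, with adjusted p-values from 0.0062 to 0.449 over 14 alternatives.

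HSFA6b, the second HSFA6 gene, was late. Solyc06g053960.3 spans 39566299 to 39568176 on the minus strand of chromosome 6 (1878 bp). It had 0.668 and 0.522 CPM before HS, 0.885 and 1.17 CPM after 1 h, and 3.24 and 4.54 CPM after 6 h. These levels rest on 16 and 13 counts, 24 and 28 counts, and 104 and 156 counts. The 3 groups did not overlap, but the step from 0 h to 1 h was small. The log2 fold change at 1 h was 0.78 (SE 0.38, 95% interval from -0.09 to 1.65, adjusted p = 0.102 by edgeR) and was not called. At 6 h it was 2.70 against 0 h (SE 0.338, adjusted p = 0.00027 by edgeR), or 6.51-fold, and 1.92 against 1 h (SE 0.312, adjusted p = 0.00074 by edgeR). HSFA6b had 50 counts or more only in the 6 h libraries, so it entered the test through the time at which it was high. HSFA2 and HSFA6a reached that count only in heated libraries, and HSFA7 in all heated libraries and 1 of the 0 h libraries. Entry in this way favours genes that differ between times, so the number of members called is given as a description only. HSFA3 passed in all libraries.

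**Figure D2:**
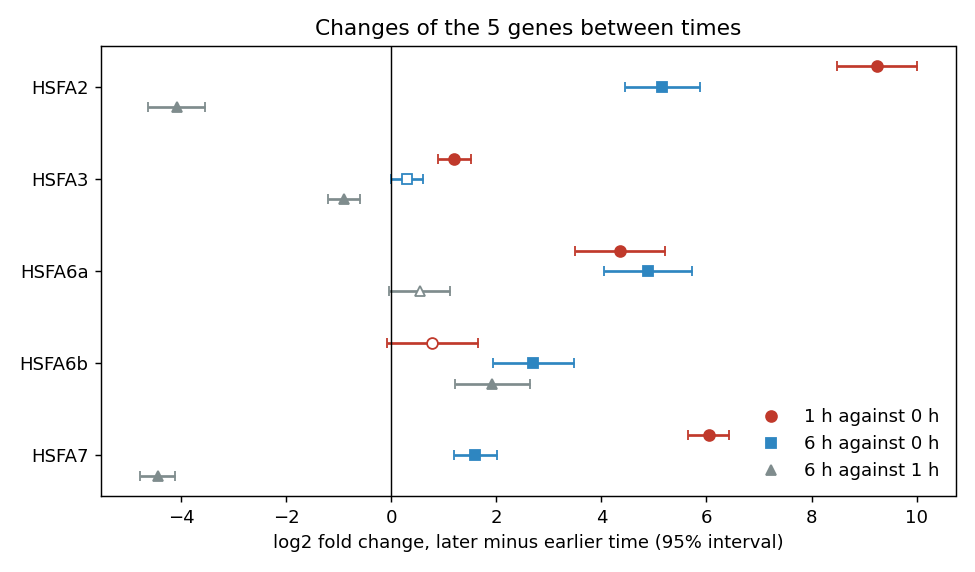
Log2 fold change with its 95% interval (horizontal) for each of the 5 genes in the 3 comparisons of times, fitted with edgeR to all 6 libraries. Filled symbols passed an adjusted p-value of 0.05 and open symbols did not; the open ones are HSFA3 from 0 h to 6 h (0.30), HSFA6a from 1 h to 6 h (0.54) and HSFA6b from 0 h to 1 h (0.78).

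The CPM values of the times did not overlap for any of the 5 genes in any comparison. Among all tested genes, the libraries were separated with 1 h above 0 h in 42.3% and below it in 41.3%, with 6 h above 0 h in 41.2% and below it in 37.7%, and with 6 h above 1 h in 45.1% and below it in 40.5%. The median log2 fold change of the 5 genes was 4.35 from 0 h to 1 h, 2.70 from 0 h to 6 h and -0.90 from 1 h to 6 h. Over all tested genes these medians were 0.00, 0.03 and 0.06. All members but HSFA3 needed heated libraries to pass the filter, and the 5 were grouped as inducible by heat. Their separation and medians are therefore given as a description only.

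The replicates at 6 h differed in HSFA2, whose level was 25.8 CPM in replicate 1 and 43.2 CPM in replicate 2. Of the 5 genes, 4 were higher in replicate 2 at this time, the exception being HSFA6a. The same was true of 18 of 23 genes on the chaperone list described below, with a median difference of 0.71 on the log2 scale, and of 49.3% of all tested genes. At 1 h the numbers were also 4 of 5 and 18 of 23, but the median difference of the 23 was only 0.04. Without replicate 2 of 6 h, the log2 fold change from 0 h to 6 h was 4.74 for HSFA2, 1.44 for HSFA7 and 2.44 for HSFA6b, whereas that of HSFA6a was 5.10, and all of them were still called by edgeR. With all libraries HSFA2 stood above HSFA6a in this comparison, at 5.16 and 4.89, so the order of these genes at 6 h turned with this library.

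The genes were then set side by side as CPM per kb of gene span, which adjusts levels for the length of the span. The length in the table is the span with introns, so these levels are relative to the whole gene. A gene with long introns gets a low value in this measure, so orders and shares between genes are approximate. At 0 h, HSFA3 led with 45.7 ± 6.23 CPM per kb (SD, n = 2), followed by HSFA7 with 0.810 ± 0.156, HSFA2 with 0.474 ± 0.0870, HSFA6b with 0.317 ± 0.0549 and HSFA6a with 0.108 ± 0.00298. At 1 h, HSFA2 led with 289 ± 9.18 CPM per kb, ahead of HSFA3 with 105 ± 1.33 and HSFA7 with 53.8 ± 0.0170. HSFA6a and HSFA6b followed far behind, with 2.25 ± 0.535 and 0.548 ± 0.109 CPM per kb. At 6 h, HSFA3 led again with 56.2 ± 4.82 CPM per kb, before HSFA2 with 17.0 ± 6.07, HSFA6a with 3.26 ± 0.729, HSFA7 with 2.47 ± 0.360 and HSFA6b with 2.07 ± 0.490. At 0 h and 1 h no neighbours in the order overlapped. At 6 h the libraries of HSFA7 and HSFA6b overlapped, and the higher HSFA7 library (2.72 CPM per kb) lay just under the lower HSFA6a library (2.75).

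Ratios within a library do not depend on how libraries are scaled. Per kb, HSFA3 stood at 121 and 77.1 times HSFA2 before HS, 0.368 and 0.359 times after 1 h, and 4.14 and 2.80 times after 6 h. The order of HSFA3 and HSFA2 was thus turned at 1 h and turned back at 6 h in every library. HSFA2 stood at 0.589 and 0.581 times HSFA7 before HS, 5.25 and 5.50 times after 1 h, and 5.76 and 7.84 times after 6 h. Between HSFA2 and HSFA7, both highest at 1 h, the ratio that was reached at 1 h was therefore still present at 6 h.

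The share of the 5 genes in the HSF family was measured against a list of 19 other identifiers drawn up as the rest of the tomato HSF genes, all of which were in the table. The sources used here pair none of these identifiers with an HSF name, so the list could not be checked. In counts per kb, the 5 genes took 24.5% ± 0.672 (SD, n = 2) of the 24 genes at 0 h, 49.2% ± 0.593 at 1 h and 32.1% ± 1.27 at 6 h. HSFA3 alone made up 23.6% ± 0.857 at 0 h, 11.5% at 1 h and 22.3% ± 0.246 at 6 h. HSFA2 went from 0.249% ± 0.0699 at 0 h to 31.6% ± 0.603 at 1 h and 6.67% ± 1.76 at 6 h. The share of HSFA7 was 0.425% ± 0.124, 5.88% ± 0.0761 and 0.976% ± 0.0486 at the 3 times. HSFA3 took a smaller share at 1 h although its own level had risen. HSFA6a and HSFA6b had their largest shares at 6 h, with 1.31% ± 0.416 and 0.815% ± 0.115.

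**Figure D3:**
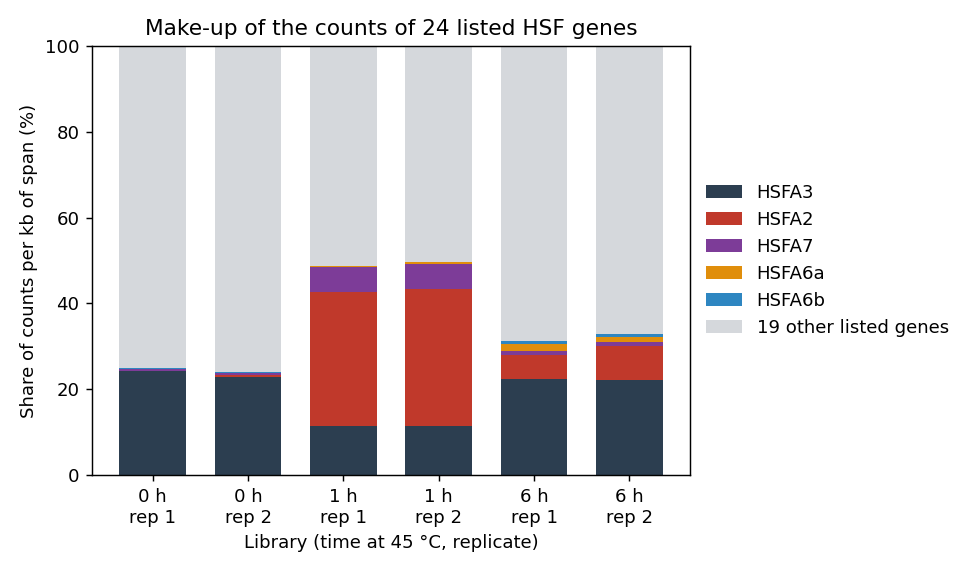
Share in percent (vertical, from 0) of the counts per kb of 24 listed HSF genes in each of the 6 libraries (horizontal). Coloured parts are the 5 class A genes and grey is the 19 other listed genes; HSFA2 takes 31.6% on average at 1 h, and HSFA3 takes most of the coloured part at 0 h and 6 h.

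Most of the other listed HSF genes also rose at 1 h. Their summed level was 155 and 137 CPM per kb before HS, 465 and 466 after 1 h, and 162 and 180 after 6 h. That of the 5 genes was 51.7 and 43.1, then 443 and 459, and finally 73.3 and 88.8 CPM per kb. Of the 19 genes, 16 passed the filter on low counts. After 1 h of HS, 11 of the 16 were called higher than at 0 h and 0 lower by edgeR, beside 32.2% and 31.3% of all tested genes. At an unadjusted p-value below 0.05 by edgeR the 16 gave 12 and 1, and DESeq2 called 1 of them lower. After 6 h, 8 exceeded 0 h and 3 were lower, beside 30.9% and 28.0% of all tested genes. Compared with 1 h, 3 were higher after 6 h and 11 were lower, beside 34.7% and 31.7% of all tested genes. The median log2 fold change of the 16 genes was 0.98 from 0 h to 1 h, 0.31 from 0 h to 6 h and -1.22 from 1 h to 6 h.

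Among the 16 tested genes, the largest rises by 1 h were those of Solyc07g055710.3, with a log2 fold change of 4.27 (SE 0.162, adjusted p = 4.57e-07 by edgeR), close to the 4.35 of HSFA6a, and of Solyc02g072000.3, with 2.89 (SE 0.142, adjusted p = 1.38e-06 by edgeR). Solyc07g055710.3 had 6.76 and 4.98 CPM before HS, 113 and 112 CPM after 1 h, and 26.3 and 30.4 CPM after 6 h, which is the order of times seen in HSFA2 and HSFA7. Solyc10g079380.2, which was under the filter and not tested, had 1 and 0 counts before HS, 49 and 36 after 1 h, and 0 and 0 after 6 h. The genes below 0 h after 6 h were Solyc09g059520.3, Solyc07g040680.3 and Solyc08g080540.3, with log2 fold changes of -1.23, -1.20 and -1.14. Those above 1 h after 6 h, the direction HSFA6b took, were Solyc06g072750.3, Solyc04g078770.4 and Solyc12g007070.2, with 1.26, 2.33 and 1.80. These last 6 genes go beyond the number fixed for a list and, like Solyc10g079380.2, are named after their values were seen. The count of 8 higher genes after 6 h was 5 without replicate 1 of 0 h and 4 without replicate 2 of 6 h, and the count of 3 lower genes was 5 without replicate 2 of 0 h.

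Chaperone genes, the main targets of HSFs, were examined through a list of 25 identifiers drawn up as small heat shock proteins, HSP101, HSP90, HSP70 and the coactivator MBF1c. Of these, 24 were in the table and 23 passed the filter. By 1 h, 23 of 23 were called higher, beside 32.2% of all tested genes. Solyc12g042830.3 (3 and 7 counts at 0 h) and Solyc08g062437.1 (38 and 18) were among those that passed the filter only through heated libraries. Entry in this way favours genes that are high in the heat, and the list was chosen with earlier results of these data known. The calls and medians of the 23 are therefore given as a description only. The median log2 fold change of the 23 was 8.13, between the 9.24 of HSFA2 and the 6.05 of HSFA7. From 0 h to 6 h, 19 were higher and 2 lower, beside 30.9% and 28.0% of all tested genes. The median of the 23 was 2.96, between the 5.16 of HSFA2 and the 1.60 of HSFA7. From 1 h to 6 h, 21 were lower and 0 higher by edgeR, beside 31.7% and 34.7% of all tested genes. DESeq2 and an unadjusted p-value below 0.05 also gave 0 higher among the 23. The median was then -4.48, beside -4.08 for HSFA2 and -4.45 for HSFA7. HSFA6a and HSFA6b did not fall in this interval, with 0.54, which was not called, and 1.92. Among the 23 tested genes, the largest rises by 1 h were those of Solyc12g042830.3, at 11.32 from 3 and 7 counts in the 0 h libraries, and of Solyc08g062437.1, at 10.91. The genes lower than at 0 h after 6 h were Solyc12g015880.2 at -1.06 and Solyc11g066060.3 at -2.52. Also on the list, Solyc08g078700.2 (1313 bp) had 55732 and 51596 counts at 1 h. Solyc06g076560.2, with a shorter span of 846 bp, had similar numbers, 54515 and 48886. The alignments were named as free of PCR duplicates. Whether this held down the counts of such abundant genes, and so their changes beside those of HSFA2 and HSFA7, was not tested.

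The genes nearest to each member in pattern were sought among all tested genes, by the Euclidean distance over the 6 libraries between log2(CPM + 0.5) values that had been centred on the 0 h mean. For HSFA2 they were Solyc08g078700.2 (distance 0.613) and Solyc06g076560.2 (distance 1.02), both on the chaperone list. Solyc08g078700.2 averaged 3.83 ± 0.820 CPM (SD, n = 2) before HS, 2108 ± 76.4 CPM after 1 h and 94.1 ± 53.4 CPM after 6 h. For HSFA7 they were Solyc09g075600.3 (0.623) and Solyc02g079150.2 (0.646), which had 36.2 ± 2.23 and 32.1 ± 1.05 CPM at 1 h and under 2 CPM on average at the other times. For HSFA3 they were Solyc03g095510.3 (0.135) and Solyc01g106560.4 (0.138), with 25.8 ± 1.32 and 40.7 ± 0.111 CPM at 1 h. Such a distance depends on how much a gene changes, so distances are not compared between members. Nearest to HSFA6a were Solyc03g026280.3 (0.453), at 2.42 ± 0.124, 23.6 ± 0.465 and 32.1 ± 3.81 CPM at the 3 times, and Solyc09g091050.4 (0.567). Nearest to HSFA6b were Solyc01g058160.3 (0.248) and Solyc12g043100.2 (0.278). These names depended on the measure. With Pearson's correlation 0 of the 10 genes were named again, and with a pseudocount of 0.1 only 2 of 10.

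None of the 5 genes overlapped another gene of the table. The nearest models lay between 1466 and 14732 bp away, except for HSFA6b. Solyc06g053950.3, on the same minus strand from 39565857 to 39566237 on chromosome 6 (381 bp), begins 61 bp past the end of HSFA6b in the direction of transcription. Gaps of 0 to 61 bp were found in 2.35% of the 19588 pairs of adjacent genes on the same strand. The neighbour, singled out after its values were seen, had 19 and 20 counts before HS, 28 and 28 after 1 h, and 108 and 113 after 6 h, close to the numbers of HSFA6b itself. It changed by 0.46 on the log2 scale by 1 h (SE 0.305, adjusted p = 0.215 by edgeR), by 2.05 over the whole 6 h (SE 0.276, adjusted p = 0.000393 by edgeR) and by 1.59 between 1 h and 6 h (SE 0.263, adjusted p = 0.00082 by edgeR). Per kb, HSFA6b stood at between 0.132 and 0.280 times this neighbour in all libraries. Reads of 75 bp are longer than the gap, and a read that overlapped several genes had been counted for each. The part of such reads in the values of HSFA6b was not tested.

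**Figure D4:**
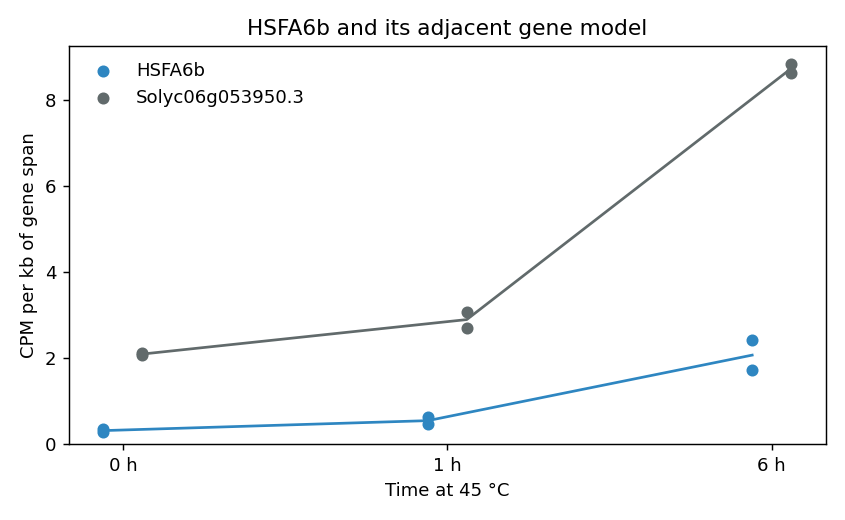
CPM per kb of gene span (vertical, from 0) against the time at 45 °C (horizontal, evenly spaced and not to scale) for HSFA6b and Solyc06g053950.3, the model 61 bp away on the same strand. Points are the 2 libraries of each time and lines join their means; both are highest at 6 h, at 2.07 and 8.72 CPM per kb.

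The other neighbours that passed the filter had courses of their own, with 1 near exception. Next to HSFA2, Solyc08g062950.4 changed by -0.19 on the log2 scale by 1 h (adjusted p = 0.511 by edgeR). On the left of HSFA6a, Solyc09g082660.3 changed by -4.71 over the same time (adjusted p = 8.05e-06 by edgeR), while Solyc09g082680.3 on its right changed by 2.00 (adjusted p = 1.83e-06 by edgeR). Like HSFA6a, Solyc09g082680.3 was also higher at 6 h than at 0 h, at 0.79 (adjusted p = 0.000333 by edgeR). Unlike HSFA6a, it fell from 1 h to 6 h, by -1.20 (adjusted p = 1.98e-05 by edgeR). The exception was Solyc09g009090.3, 2791 bp from HSFA3 on the opposite strand. Its log2 fold change was 1.38 from 0 h to 1 h (adjusted p = 5.06e-05 by edgeR), 0.19 from 0 h to 6 h (adjusted p = 0.259 by edgeR) and -1.18 from 1 h to 6 h (adjusted p = 0.000103 by edgeR), beside 1.20, 0.30 and -0.90 for HSFA3.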

How the data were processed

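Leaf RNA of 6 samples was analysed. Stranded libraries had been made from 2 µg of total RNA and, per the labels, read from 1 end over 75 bp. The deposited values are raw counts, made by the authors with featureCounts 2.0.0 on whole gene spans of the M82 gene models, version 1.1.0. Per the file header, strand was used, mapping quality was at least 30, and a read overlapping several genes was counted for each. The same header sets the option for paired reads, so whether single or paired reads were counted is open. The deposited gene length, the other column used, equals the span in all 35603 genes, so reads in introns were counted. The submitters' processing notes name Trimmomatic 0.38 and Bowtie2 2.3.5, whereas the methods of the study name STAR. The alignments were named as free of PCR duplicates, and how duplicates were recognised is not given in the sources used here.

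Tested were the 19123 genes that reached 50 counts in 2 or more libraries, as in the study. All 6 libraries entered 1 fit in edgeR 4.0.16 (R 4.3.3) with TMM factors and time as the only term. The quasi-likelihood F test was two-sided, and its p-values were corrected after Benjamini and Hochberg across every gene in the fit. A standard error is the log2 fold change divided by the square root of F. Alternatives were DESeq2 1.42.0 (the tool of the study), other scalings, filters and thresholds, fits to 4 libraries, a replicate block and leaving out each library. The fits were also run on simulated data in which few genes changed, and those by much less than HSFA2. That run does not cover changes as widespread or as large as the ones seen here. P-values measure the spread between 2 pooled samples a time, and low counts limit the precision of weakly expressed genes.

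The members and gene lists were chosen with earlier results of these data known. Named were the members, up to 4 genes a list (the 2 with the largest change at 1 h and those against the majority) and the 2 genes nearest in pattern to each member. A planned description of promoters and proteins was left out, since their sequences were not used here.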

Additional observations from a re-analysis of the deposited data

Results flagged for a closer look

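The change against 0 h differed between the 2 times of HS for 4 of the 5 genes, by the direct test of 6 h against 1 h. Of all tested genes, 34.7% were called higher and 31.7% lower in that test, so such a difference is common. For the members called, the differences were -4.08 for HSFA2, -0.90 for HSFA3, 1.92 for HSFA6b and -4.45 for HSFA7 on the log2 scale. HSFA6b is the only one of these whose change grew, and its 1 h change rests on 24 and 28 counts.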

How the results depend on the processing

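Of 210 log2 fold changes of the 5 genes under alternatives, 205 kept their direction and their side of the threshold, 5 gained a call and 0 changed sign. Those that gained a call were HSFA3 from 0 h to 6 h, at 0.39 with upper-quartile factors, 0.58 with library size and 0.45 without replicate 1 of 0 h, and HSFA6a from 1 h to 6 h, at 0.77 and 0.96 with the same scalings. When each library was left out in turn, HSFA3 over 6 h ranged from 0.12 to 0.45, and it was not called in the other 5 of these 6 fits. These 2 scalings raised the number of members called higher between 1 h and 6 h from 1 to 2. With library size the median of all genes moved to -0.15 from 0 h to 1 h, 0.30 from 0 h to 6 h and 0.48 from 1 h to 6 h, and rises made up 41.4%, 71.0% and 74.3% of calls in place of 50.7%, 52.4% and 52.3% with TMM. Upper-quartile factors gave 42.1%, 58.9% and 65.1%. Relative to the median of all genes, HSFA3 over 6 h was at 0.28 with library size and 0.27 with TMM, and HSFA6a between 1 h and 6 h at 0.47 and 0.48.

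Of the other listed HSF genes, 1 was called lower at 1 h in place of 0 with DESeq2, upper-quartile factors, library size, no filter, 4 libraries and the replicate block, and 0 to 1 when single libraries were left out. After 6 h, 3 were higher at an adjusted p-value below 0.01 and 4 with a minimum change of 1 on the log2 scale, and leaving out single libraries gave 4 to 8 higher and 3 to 5 lower. Library size gave 5 higher between 1 h and 6 h, in place of 3. In counts in place of counts per kb, the members took 21.4%, 42.5% and 30.1% of the HSF genes at 0, 1 and 6 h. Of the 2 nearest genes named for each member, Pearson's correlation kept 0 for every member, and a pseudocount of 0.1 kept 1 for HSFA2 and HSFA3 and 0 for the others. A minimum change of 1 lowered the calls over all genes to 3050 higher and 2851 lower (6152 and 5992 without it) between 0 h and 1 h, 2599 and 1940 (5900 and 5350) over 6 h, and 3323 and 2790 (6633 and 6055) between 1 h and 6 h. Library size gave 3379 lower over 6 h, and 10248 higher and 3552 lower between 1 h and 6 h. The cause was not tested beyond the construction of each alternative.

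With the replicate number as a block, the 1 h change was 9.27 in HSFA2 and 0.77 in HSFA6b, and no call of a member changed. The numbers were not taken to pair the samples, since the deviations of same-numbered libraries correlated at -0.0956, -0.0223 and 0.199. Depth limits HSFA6a and HSFA6b at 0 h, with 6 and 6 and with 16 and 13 counts.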
